A study of Arabidopsis thaliana with 3 samples.

Results

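Places that were enriched in both DEK2-YFP immunoprecipitates and whose summits lie in the pericentromeric windows of the 5 nuclear chromosomes of Arabidopsis thaliana are described here. The windows run from 11.5 to 17.7 Mb on chromosome 1, 1.1 to 7.2 Mb on chromosome 2, 10.3 to 17.3 Mb on chromosome 3, 1.5 to 6.3 Mb on chromosome 4 and 9.0 to 16.0 Mb on chromosome 5. A member is a replicate 1 peak with its summit in a window and a replicate 2 peak covering it over 50% or more of the shorter of the pair. The position of a shared peak is given by its replicate 1 summit. Of 10812 such shared peaks 579 were in the windows (5.36%), and the other 10233 were in the chromosome arms, which here means all sequence outside the windows. The windows make up 26.1% of the chromosome length and hold 12.3% of the protein-coding genes.

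The immunoprecipitates came from 14-day-old seedlings of the genotype dek2-1, pDEK2::DEK2-YFP, that is, dek2-1 mutants with a fusion of DEK2 and YFP under the DEK2 promoter, and were made with an anti-GFP antibody. There are 2 replicates. The values of 1 input sample were not analysed here, and no values of plants lacking the fusion were available. Whether the authors' peak calls used the input is not given in the labels or notes. The labels do not say whether the replicates came from separate plants, so their spread may be technical. Tissue was whole seedlings, in which binding in fewer cells and weaker binding in all cells cannot be told apart.

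DEK proteins are chromatin proteins that bind DNA and histones, and the title of the series describes AtDEK2 as a reader of histone marks. Pericentromeric DNA of Arabidopsis is mostly heterochromatin: it is rich in transposable elements, carries dense DNA methylation and methylated lysine 9 of histone H3, and holds fewer genes per length than the arms. Active genes lie within it as islands, mostly towards its edges.

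The members were few and were thin on the ground even per gene. There were 18.6 shared peaks per Mb in the windows against 116 per Mb in the arms, a ratio of 0.160. Protein-coding genes were also scarcer, with 109 per Mb in the windows and 273 per Mb in the arms. Per 100 protein-coding genes there were 17.1 shared peaks in the windows and 42.6 in the arms, a ratio of 0.402. The ratio per gene was 0.448 among all peaks of replicate 1 and 0.413 among all peaks of replicate 2, so both lists had fewer peaks per gene in the windows. Peaks of 1 list are not replicates of each other, and an exact two-sided sign-flip test over 2 replicates cannot go below p = 0.5. The comparisons of windows with arms are therefore given without a test. Some have the value in each replicate or on each chromosome beside them, and the others rest on the shared peaks alone.

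All 5 chromosomes had a lower density per gene in their window than in their arms, and they differed among themselves. Chromosome 1 had 24.9 shared peaks per 100 genes in its window (167 peaks) against 43.9 in its arms. Chromosome 3 had 19.1 (144 peaks) against 43.8, and chromosome 5 had 17.7 (148 peaks) against 44.1. Chromosome 4 had 11.3 (49 peaks) against 37.7, and chromosome 2 had 10.3 (71 peaks) against 41.2. The ratio of window to arms thus ran from 0.250 on chromosome 2 to 0.568 on chromosome 1. All peaks of replicate 1 gave ratios of 0.301 on chromosome 2 and 0.574 on chromosome 1, and all peaks of replicate 2 gave 0.224 and 0.570.

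Of the 3383 protein-coding genes of the windows, 471 had a shared summit in their span or at most 500 bp from it (13.9%, 95% Wilson interval 12.8 to 15.1). In the arms this held for 8903 of 24049 genes (37.0%, 36.4 to 37.6), and over all chromosomes for 34.2%. Such genes are called marked genes below, as a name for that position only. Because the replicate 1 summit sets the position, a marked gene can lack a replicate 2 summit within 500 bp, as PRK did. The intervals cover counting error only. Of the 2912 unmarked genes of the windows, 576 had a peak in replicate 1 alone, 35 in replicate 2 alone, 35 had peaks in both lists that were not shared, and 2266 had none. In replicate 1 alone 31.9% of window genes had a peak against 71.6% of arm genes, and in replicate 2 alone 15.7% against 40.0%.

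**Figure D1:**
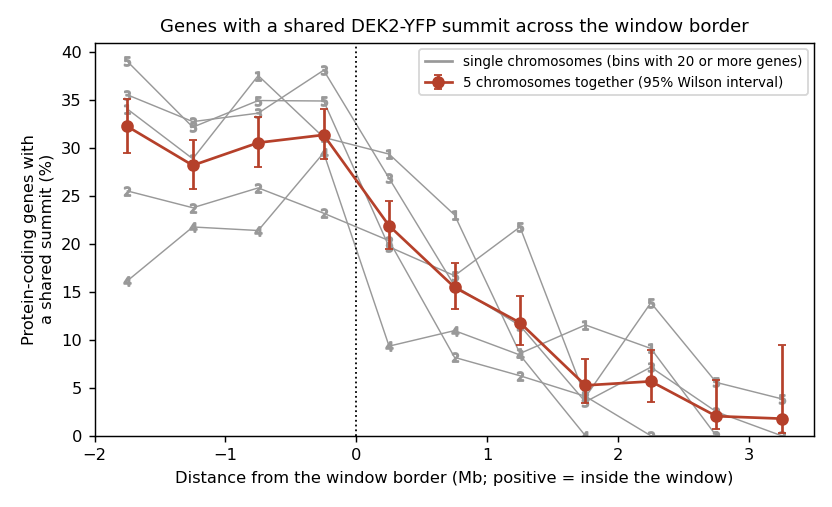
Share of protein-coding genes with a shared summit inside or within 500 bp, in bins of 500 kb by distance from the nearest window border (Mb, positive inside the window). Red points are the 5 chromosomes together with 95% Wilson intervals, and grey digits are single chromosomes; the red share is 31.3% just outside the border, 21.9% just inside it and 1.79% in the innermost bin.

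Members were found mostly near the outer edges of the windows. In the outermost 500 kb at each side, 225 of 1029 genes were marked (21.9%, 19.4 to 24.5), and the 500 kb of arm next to the windows had 379 of 1210 (31.3%, 28.8 to 34.0). The share was 15.5% at 500 to 1000 kb inside the border, 11.8% at 1000 to 1500 kb and 5.25% at 1500 to 2000 kb. Beyond 3000 kb inside, 1 of 56 genes was marked (1.79%, 0.316 to 9.45). The pseudogenes of the gene table, here those annotated as transcribed or not, had another profile. There were 114 in the 500 kb outside the border, 295 in the outermost 500 kb inside and 810 at 2000 to 2500 kb inside, then 643 at 2500 to 3000 kb and 389 at 3000 to 3500 kb. These are counts and not densities. The windows are 4.8 to 7 Mb long, so the bins beyond 2000 kb cover less and less sequence. Protein-coding genes in the last 3 of these bins numbered 300, 147 and 56. The 3 shared summits nearest a border on its inner side lay 0.981, 3.992 and 4.938 kb inside, with replicate 1 folds of 2.22, 1.50 and 2.08. The nearest 3 outside lay 2.547, 2.742 and 4.193 kb away, with folds of 1.50, 1.72 and 2.91.

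Approximate centromere midpoints were recalled from general knowledge and rounded to 0.1 Mb. Within 1 Mb of them 8 shared peaks were found. Up to 0.5 Mb from a midpoint, 2 of 197 protein-coding genes were marked among 809 pseudogenes, and from 0.5 to 1 Mb 3 of 185 among 881 pseudogenes. The best of the 8 by rank was at chr5:10862018-10862562 in GME, which encodes GDP-mannose epimerase, an enzyme of ascorbate and cell wall synthesis, with folds of 2.15 (replicate 1) and 2.69 (replicate 2). Another was at chr4:4073515-4073941, just outside RAP2.9, an ERF-type transcription factor gene, with 2.02 and 2.22. The others near genes were at AT5G32450 (chr5:12079345-12079711, 2.295 and 1.97), PLA2-ALPHA, which encodes a secreted phospholipase A2 (chr2:2843176-2843441, 1.77 and 1.99), and AT1G42440 (chr1:15899997-15900372, 1.85 and 1.61). The remaining 3 had no protein-coding gene within 500 bp, and 1 of them, at chr1:14305470-14305849, was 9393 bp from the nearest.

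Long stretches held no shared summit. The longest in each window was 2.31 Mb on chromosome 3, 2.03 Mb on chromosome 2, 1.59 Mb on chromosome 1, 1.35 Mb on chromosome 4 and 1.22 Mb on chromosome 5. The stretch on chromosome 2 spans 188 protein-coding genes, with 8 peaks of replicate 1 and 1 of replicate 2, while that on chromosome 1 spans 18 genes. Cut into tiles of 100 kb, 153 of 311 window tiles held no shared summit (49.2%), against 1 of 882 arm tiles. The sources used here do not give how reads with several matches were treated. The part of such reads in the low counts of repeat-rich sequence was not tested.

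The lower density per gene was also seen in tiles with similar numbers of genes. In tiles with over 20 protein-coding genes there were 20.5 shared peaks per 100 genes in 51 window tiles against 41.9 in 820 arm tiles. In tiles with 11 to 20 genes there were 19.1 in 85 window tiles against 56.4 in 61 arm tiles. Within the windows the density was lower still where genes were fewer, at 10.7 in tiles of 6 to 10 genes and 3.52 in tiles of 1 to 5 genes, classes of which the arms had 1 tile. Window tiles with over 20 genes held a mean of 4.84 pseudogenes, against 1.10 in arm tiles of that class.

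**Figure D2:**
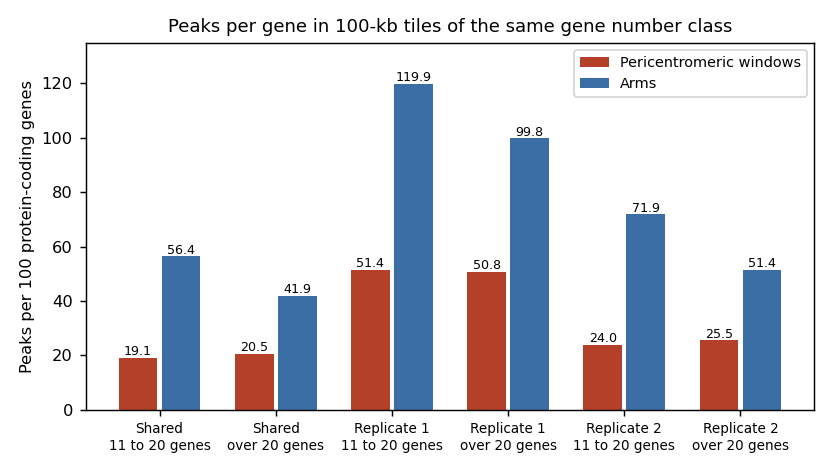
Peaks per 100 protein-coding genes (vertical axis) in 100-kb tiles with 11 to 20 or over 20 genes, for shared peaks and for all peaks of each replicate; red bars are the pericentromeric windows and blue bars the arms. In each of the 6 pairs the window value is lower, for example 20.5 against 41.9 for shared peaks in tiles with over 20 genes.

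The difference was also seen within classes of gene length. Genes of the windows were shorter, and marked genes were longer than the rest: their median length was 2318 bp in the windows against 2394 bp in the arms, while unmarked genes had 1576 bp and 1950.5 bp in the windows and arms. Among genes of 2 to 3 kb, 19.9% of 717 were marked in the windows (17.2 to 23.0) and 42.5% of 6709 in the arms. Among genes up to 1 kb, 4.56% of 965 were marked in the windows (3.41 to 6.07) and 19.5% of 3412 in the arms. The share was lower in the windows in each of the 5 length classes, which were counted with shared peaks only.

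**Figure D3:**
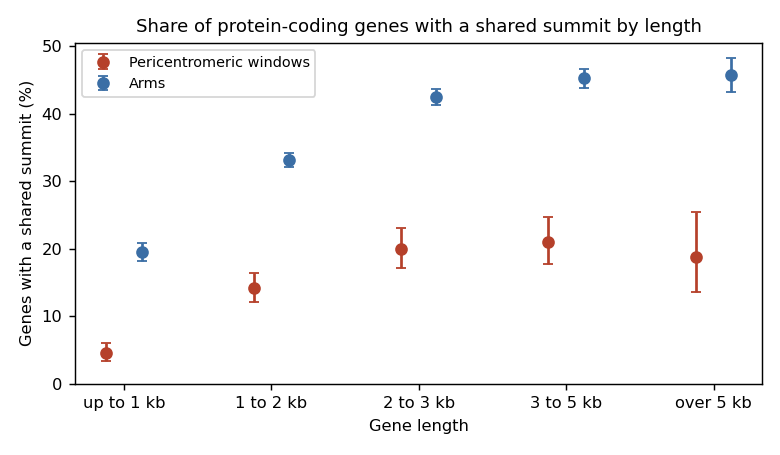
Share of protein-coding genes with a shared summit (vertical axis, percent) in 5 classes of gene length, with 95% Wilson intervals; red points are the pericentromeric windows and blue points the arms. The window share is lower in every class, from 4.56% against 19.5% up to 1 kb to 18.8% against 45.7% over 5 kb.

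Closeness to a pseudogene went with a lower share in both areas. Of window genes within 2 kb of an annotated pseudogene 8.35% were marked (89 of 1066), against 26.7% of such arm genes. Of genes over 10 kb from one, 20.7% were marked in the windows (190 of 918) and 38.4% in the arms. Genes with a symbol of their own in the table, a rough sign of having been studied, were marked in 22.5% of 903 cases in the windows and 41.2% of 9460 in the arms. Genes known by locus only were marked in 10.8% of 2480 cases in the windows and 34.3% of 14589 in the arms.

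Pseudogenes themselves were almost free of shared summits in the windows. Of 3346 genes in the class pseudogene, which leaves out transcribed ones, 8 had a shared summit inside or within 500 bp (0.239%, 0.121 to 0.471). In the arms 41 of 571 had one (7.18%, 5.34 to 9.60). Long non-coding RNA genes had one in 41 of 618 cases in the windows (6.63%) and 708 of 2862 in the arms (24.7%). Transfer RNA genes had one in 17 of 62 cases in the windows (27.4%, 17.9 to 39.6) and 355 of 563 in the arms (63.1%, 59.0 to 66.9).

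The position of summits relative to genes was compared between members and arm peaks. Of the 579 members, 40.4% (36.5 to 44.5) had the summit in a protein-coding gene at most 500 bp from one of its ends, against 35.5% of the arm peaks. Summits outside but within 500 bp made up 30.4% (26.8 to 34.3) against 36.7%. Only 5.01% of members lay deeper than 500 bp inside a gene, against 5.47% in the arms, and 21.6% were intergenic, against 20.5%. Summits were a median of 168 bp from the closest end of a gene in the windows and 173 bp in the arms. Taking all peaks of each replicate, summits inside and near an end made up 40.4% in windows against 39.3% in arms for replicate 1, and 34.6% against 32.4% for replicate 2. Summits outside a gene but within 500 bp made up 29.7% in windows against 33.2% in arms for replicate 1, and 30.0% against 36.3% for replicate 2. In replicate 1, summits at genes of other classes made up 4.26% in windows against 1.67% in arms. The gene table gives no strand, so starts and ends of genes could not be told apart. Fewer members lay near more than 1 gene: 81 of 579 (14.0%, 11.4 to 17.1) against 24.7% in the arms, where genes are closer together.

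Members were narrower in replicate 1. The median width of the replicate 1 peak was 472 bp in the windows (quartiles 370 and 645) and 607 bp in the arms (448 and 856), a ratio of 0.778. The matching replicate 2 peaks had medians of 259 bp in the windows and 275 bp in the arms, so there the gap was small. Chromosomes gave ratios of 0.751 to 0.822 for replicate 1 widths. Arm peaks in the 500 kb next to the windows had a median replicate 1 width of 515 bp, and members in the outermost 500 kb inside had 491 bp. At 1500 to 2000 kb from the border the medians were 556.5 bp outside and 427.5 bp inside. The gap at the border was thus smaller than that between the windows and all arm sequence. Peaks of at least 1000 bp made up 6.22% of members (4.52 to 8.49) and 16.8% of arm peaks (16.1 to 17.6). Widths were also compared in classes of enrichment. Of 5 equal classes of shared peaks by replicate 1 fold, the lowest had medians of 371 bp in windows and 458 bp in arms, and the highest 625 bp and 768 bp. In the matching replicate 2 peaks the sign was mixed, with 238 bp in windows against 235 bp in arms in the lowest class 223 bp against 243 bp in the next, and 372 bp against 370 bp in the highest.

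**Figure D4:**
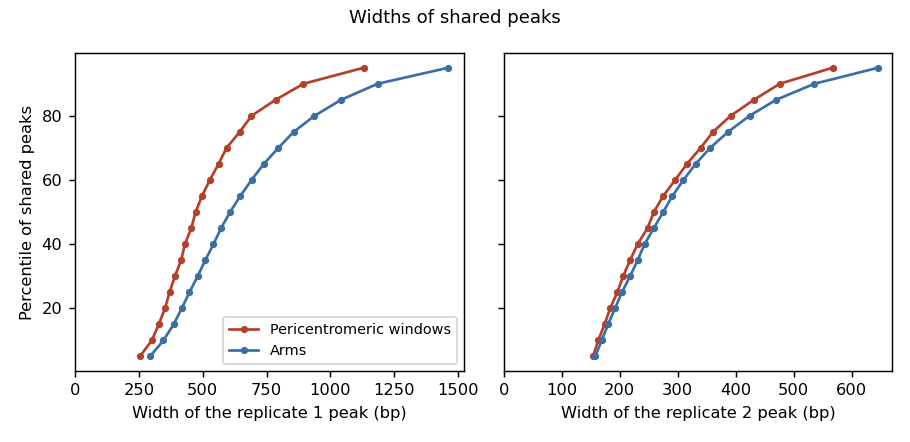
Percentiles (vertical axis) of the width in bp of shared peaks (horizontal axis), for the replicate 1 peak on the left and the matching replicate 2 peak on the right; red is the pericentromeric windows and blue the arms. The medians are 472 against 607 bp in replicate 1 and 259 against 275 bp in replicate 2.

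Enrichment of the shared peaks was nearly the same in both areas. Only peaks that passed the authors' threshold in both lists enter this comparison. Places without a peak have no fold value, so enrichment of the areas as a whole was not compared. Fold enrichment, the authors' ratio of the signal at the summit to the background used in their peak calling, had a median of 2.03 in the windows and 2.08 in the arms in replicate 1. In the matching replicate 2 peaks the medians were 2.07 in the windows and 2.04 in the arms. Of the 1527 replicate 1 peaks in the windows 37.9% were shared (35.5 to 40.4), against 42.3% in the arms and 42.0% of all replicate 1 peaks. Of the 731 replicate 2 peaks in the windows 82.6% were found again (79.7 to 85.2), against 89.3% in the arms. Summits of members lay a median of 57 bp apart between the replicates, against 70 bp in the arms.

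Members were ranked by the worse of their ranks of fold enrichment in the replicates. The first, at chr1:12554007-12554554, had its summit 77 bp inside AT1G34380 and folds of 3.10 in replicate 1 and 3.71 in replicate 2. The second, at chr4:5851429-5852161 with 3.30 and 3.02, had no annotated gene within 500 bp and its summit 2045 bp from the nearest protein-coding gene. The third, at chr3:11005354-11006820 with 2.84 and 3.64, had its summit 42 bp inside AT3G29010 and 92 bp outside AT3G29000. These 3 were high in both replicates.

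The next of the best 10 that lie near protein-coding genes had folds of 2.68 to 2.94. They were a peak 36 bp outside MEE14 (chr2:6921818-6922460, 2.71 and 2.85), 1 near AT4G09520 (2.70 and 2.90), 1 between AT1G44790 and SIAR1, an amino acid transporter gene (chr1:16913367-16913937, 2.73 and 2.72), and 1 near AT1G32650 (2.68 and 2.94). The other 3 of the best 10 were over 500 bp from any protein-coding gene. The peak at chr3:17018369-17019832 (3.12 and 2.71) lay beside a long non-coding RNA gene, with summits at 17018576 in replicate 1 and 17019594 in replicate 2. That at chr3:16426826-16427281 (2.68 and 3.11) had its summit in the transfer RNA gene AT3G44955, and that at chr1:11619613-11620464 (2.67 and 3.17) had no annotated gene within 500 bp.

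Over all members, 140 of 579 (24.2%) were over 500 bp from a protein-coding gene, against 22.3% in the arms. Of these 140, 45 were within 1000 bp of one, 51 were at 1000 to 2000 bp and 44 were farther. Of the 140, 15 were within 500 bp of a long non-coding RNA gene, 2 of a pseudogene and 7 of a transcribed pseudogene, and 107 had no annotated gene within 500 bp. After the 4 among the best 10, the next by rank was at chr5:15413583-15414755 (2.63 and 3.00), with its replicate 1 summit in the long non-coding RNA gene AT5G05765. Its summits were at 15413741 in replicate 1 and 15414542 in replicate 2. The member at chr5:13611512-13611818, with 1.79 and 2.03, lay near MIR396b, a conserved microRNA gene that targets growth-regulating factor genes, and a second member at chr5:13612378-13612899 (1.85 and 1.902) was over 500 bp from it.

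Which active genes carry peaks there was followed through 5 lists of window genes taken to be used in green seedlings. The lists were recalled from general knowledge, with earlier results of these data known. They do not rest on expression data, which were not measured here. Genes that mark a response, such as PR1, are among those listed, and whether they were active in these seedlings is unknown. The 5 lists hold 121 genes, all of them found in the windows by the gene table. In all, 46 of the 121 were marked (38.0%, 29.9 to 46.9), beside 13.9% of all window genes and 37.0% of arm genes. Of genes with a symbol of their own, 22.5% were marked in the windows and 41.2% in the arms. No like list of arm genes was counted, so listed window genes cannot be set against active genes of the arms. The share of 13.9% is also the background for each of the 5 lists below. The listed genes are long, with a median of 2474 bp, and 19.9% of all window genes of 2 to 3 kb were marked. A peak of replicate 1 lay at 92 of the 121 listed genes and a peak of replicate 2 at 50. Of all window genes 31.9% had a peak in replicate 1 and 15.7% in replicate 2, and of arm genes 71.6% and 40.0%. The best members of the marked listed genes had median folds of 2.15 in replicate 1 and 2.097 in replicate 2. For the best members of all 471 marked genes of the windows these were 2.02 and 2.06.

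Of the signalling, hormone and light list 15 of 37 genes were marked, with median folds of 2.43 in replicate 1 and 2.2002 in replicate 2. MYC2, the main transcription factor gene of jasmonate signalling, had its member at chr1:11798284-11799413 (2.99 and 2.66), whose summit also lies in the span of AT1G32630. CAM7, a calmodulin gene, had 2.78 and 2.61 at chr3:15664011-15664503, with the summit 1200 bp inside the gene. AHK2, a cytokinin receptor gene (HK2 in the table), had 2.53 and 2.81 with the summit 50 bp inside, at chr5:13916406-13917075. GRF3, a gene for a 14-3-3 protein, had 2.43 and 2.51 at chr5:15409385-15409859.

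Further marked genes of this list were CML24 (TCH2 in the table), a touch-induced calmodulin-like gene, PHOT1, a blue-light receptor gene, and the kinase genes MPK3, MEKK1 and CPK11 (CDPK2 in the table). The member of CPK11 (1.75 and 1.64) had its summit 448 bp outside that gene and 54 bp inside RPL21C. CML24 had 3.42 and 2.39, from a peak that also lies near AT5G37760. MPK3, a MAP kinase gene of immune signalling, had 2 shared peaks, the better at chr3:16757231-16759421 with 3.29 and 2.14. The summit of that peak was 103 bp outside MPK3 and 100 bp inside the neighbouring gene NAXT1. CBP60G, a regulator gene of salicylic acid synthesis, had 2.12 and 1.86. Among the longest unmarked members of the list were CPK23 and SERK2, each with 1 peak in replicate 1 (1.93 and 1.40) and none in replicate 2. PR1, a marker gene of the salicylic acid response, had no peak in either list.

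Of the cytosolic ribosome list 10 of 22 genes were marked. RPL5B had 2 shared peaks, the better at chr5:15902580-15903517 with 3.01 and 2.65 and its summit 3 bp inside the gene, also near AT5G39730. RPS18B (AT1G34030) had 2.04 and 2.22, RPL3A (RP1 in the table) 2.16 and 2.06, and RPL18C (AT5G27850) 2.00 and 2.46. The summit of the RPL18C member was also 24 bp outside AT5G27860. RPL34C and RPS3C were the longest unmarked ones, the first with no peak and the second with 1 in replicate 1 only (1.78). Ribosomal protein genes have close copies elsewhere in the genome, so reads may have been shared out between copies.

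Of the photosynthesis and plastid list 9 of 25 genes were marked. RPL12-A and RPL12-C, which encode a protein of the plastid ribosome, had 2 shared peaks each and lie close together. The better member of RPL12-A, at chr3:10319223-10319915, had 2.35 and 2.53, and that of RPL12-C, at chr3:10324230-10324877, had 2.24 and 2.13. The summit of the RPL12-A member was also 68 bp inside AT3G27831. PSBX, a photosystem II subunit gene, had 2.43 and 2.17 from a peak whose summit is inside its neighbour VPS2.1. GS2, the gene of plastid glutamine synthetase, had 2.08 and 2.04. The longest unmarked ones were PSBS (NPQ4 in the table), which acts in photoprotection and had no peak, and PAO (ACD1 in the table), a gene of chlorophyll breakdown with 1 peak in replicate 1 (1.74). The Rubisco small subunit genes RBCS1B, RBCS2B and RBCS3B lie side by side, and of them RBCS3B was marked (1.82 and 2.25). RBCS2B and RBCS1B had a peak in replicate 2 only (2.90 and 1.86), and these near-identical copies cannot be told apart with certainty.

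Of the protein folding and turnover list 4 of 11 genes were marked. UBQ10, a polyubiquitin gene often used as a steady reference, had 2 shared peaks. The better one, at chr4:2719727-2720563, had 2.14 in replicate 1 and 4.90 in replicate 2, the highest replicate 2 fold among the members. It also lies near AGD13, and the repeated units of polyubiquitin genes resemble each other. UBQ11, another polyubiquitin gene, had 2.77 and 2.00, PAA1, a subunit gene of the proteasome core, 2.16 and 2.03, and ATJ3, a chaperone gene (J3 in the table), 1.57 and 2.17. DDB1A and CCT3 were the longest unmarked ones, each with 2 peaks in replicate 1 only (best 1.58 and 1.97).

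Of the metabolism list 8 of 26 genes were marked. Besides GME, described above, these were NDPK1, a nucleoside diphosphate kinase gene (2.095 and 2.12), PRODH1, the gene of proline dehydrogenase (ERD5 in the table), with 2 shared peaks (2.23 and 2.08), and NIT3, a nitrilase gene (1.98 and 2.29). The remaining 4 were ARGAH2, GSH2, G6PD1 and ADC1. The longest unmarked ones were ACC1, the gene of cytosolic acetyl-CoA carboxylase with 10848 bp, which had no peak, and CAS1, a sterol synthesis gene with 1 peak in replicate 1 (1.94).

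**Figure D5:**
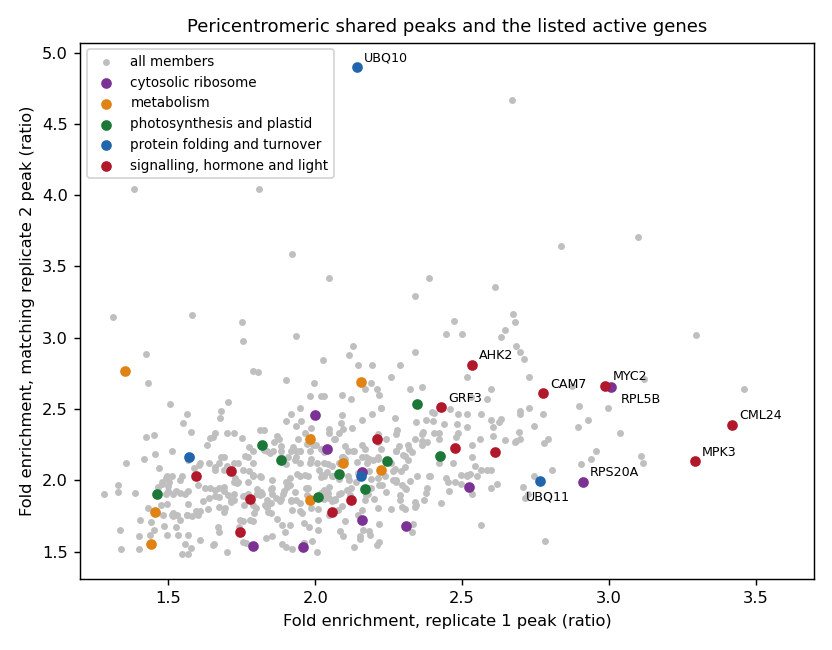
Fold enrichment (ratio, no unit) of each of the 579 members in replicate 1 (horizontal axis) and of its matching replicate 2 peak (vertical axis). Grey points are all members and coloured points the best members of the 46 marked genes of the 5 lists; UBQ10 has the highest replicate 2 fold (4.90), and MYC2, RPL5B and CAM7 are above 2.5 in both.

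A family of short genes, the LCR and SCRL genes for small cysteine-rich peptides, was also listed. Of its 18 genes in the windows none was marked (0%, 0 to 17.6), and none had a peak in either list. Their median length was 554.5 bp, and of all window genes up to 1 kb 4.56% were marked.

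Most marked genes of the windows had a single shared summit. There were 420 with 1, 50 with 2 and 1 with 3. The last was AT1G32700, whose best member was at chr1:11829356-11830014 (2.26 and 2.72). Genes with 2, chosen after their values were seen, included GID1C, a gibberellin receptor gene, with 1.99 and 2.15 at its best member, ABCB19, an auxin transporter gene, with 2.28 and 2.203, and MBD5, a gene for a methyl-CpG-binding protein, with 2.12 and 2.88.

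The 3 widest members in replicate 1 are given here, again chosen after their values were seen. Peaks of 2198 bp in replicate 1 lay beside RDUF1, a ubiquitin ligase gene of stress responses (2.93 and 2.42), and in EXO, a gene of brassinosteroid-promoted growth (2.62 and 1.97). The peak of 2191 bp at NAXT1 and MPK3 was given above, and the next, of 2183 bp, lay in AT5G35735. The matching replicate 2 peaks of the 3 widest were 439, 186 and 441 bp wide.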

How the data were processed

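Chromatin immunoprecipitation followed by sequencing gave 1 deposited peak list for each of 2 replicates. The submitters' processing notes name Trimmomatic 0.38, Bowtie2 2.3.5, SAMtools 1.9, MACS2 2.2.7.1 and TAIR10, without roles or settings. The files have no header, and the narrowPeak column order was assumed. The deposited score is a whole number made from the q value, the deposited fold enrichment is a ratio, and p-values and q-values were deposited as −log10 values, none with a −log10 q under 1.30. Read depth is unknown. Replicate 1 has the longer list and the wider peaks, so that numbers and widths are not comparable between the replicates.

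Coordinates are TAIR10, counted from 1. A RefSeq table gave the genes' names, spans and classes; it is of TAIR10.1, without strand or sequence, and none of its coordinates is printed. Of the members, 45.4% had summits inside protein-coding spans, and 41.3 to 54.4% when all were displaced by up to 1000 bp. Genes were placed by their midpoint. Where several replicate 2 peaks matched, the one with the highest fold was used. Named genes are those at the 10 best members, the 4 best marked and 2 longest unmarked of each list, those within 1 Mb of a centromere midpoint, those with 3 or more summits, and others stated as chosen later or added to these lists' accounts with values known. One further gene list is not reported here. Members and lists were chosen with earlier results of these data known. The code, in Python 3.11.15 with pandas 2.3.3 and scipy 1.17.1, was tested on simulated data.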

Additional observations from a re-analysis of the deposited data

How the results depend on the processing

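The lower density in the windows kept its direction in all alternatives tried, and its size depended on how the windows were drawn. With windows 1 Mb shorter at both sides there were 143 members, and window over arms was 0.234 for peaks per gene and 0.211 for the share of marked genes. With windows 1 Mb longer these were 1469, 0.584 and 0.558. With an overlap of 50% of both peaks there were 341 members and ratios of 0.527 and 0.483. Requiring −log10 q values of 5 or more from both replicates left 185 members. The ratio of marked shares was 0.376 in the main count, 0.455 with summits inside genes only and 0.460 in genes of at least 1500 bp. The width ratio of 0.778 became 0.942 with the replicate 2 peaks of the shared pairs. With each replicate list alone, the number of peaks was 731 to 1527, the ratio per gene 0.413 to 0.448, the ratio of marked shares 0.393 to 0.447 and the width ratio 0.814 to 0.931. The cause of these shifts was not tested. No paired analysis was possible because there is 1 group of immunoprecipitates. Weak peaks that missed the authors' threshold are not listed, and how many are missed changes with depth.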

Other observations

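The ribosomal RNA gene copy in the window of chromosome 3 carried peaks in 1 replicate only. Replicate 2 had 11 peaks within 5 kb of the ribosomal RNA genes AT3G41768 and AT3G41979, from chr3:14195571-14202925, with fold enrichments of 1.38 to 1.74 and −log10 q values of 2.46 to 9.80. Replicate 1 had none there, although it had more peaks in all, and none of the 11 counts as shared. They are 11 of the 127 replicate 2 peaks of the windows that were not found in replicate 1. At the ribosomal RNA genes at the upper end of chromosome 2, which lie in the arms, replicate 2 had 2 peaks and replicate 1 had none. Ribosomal RNA genes are present in many copies, most of which are not in the assembly. The part of copy number and of read placement in this difference was not tested.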
